A study of Homo sapiens with 2 samples.

Results

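Immediate early genes are transcribed within minutes of a stimulus, before any new protein is made, and 10 of them were followed in hNCI-H716 cells: FOS, FOSB, JUN, JUNB, EGR1, NR4A1, IER2, IER3, DUSP1 and KLF6. They were listed as genes that respond to serum, cAMP and handling, and were taken from the expression table by symbol, a rule that uses no measured value. The list itself was drawn up with earlier results of these data known. All 10 had a value among the 19989 genes of the table. The question put to them was whether the low and high glucose libraries differed in acute handling. Any difference in handling would coincide with glucose and library here, so the values cannot tell these apart.

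The hNCI-H716 line derives from a colorectal adenocarcinoma of the cecum and serves as a human L-cell model. Cells of both groups were grown in suspension in RPMI, plated on Matrigel and left for 24 h to attach. They then received DMEM with 10% fetal bovine serum and penicillin/streptomycin for 48 h, at 5.5 mM glucose (low glucose, 1 library) or 25 mM glucose (high glucose, 1 library), so that serum, matrix and change of medium were shared by both. Polyadenylated RNA was sequenced, and levels are given as CPM, the counts of a gene scaled to a fixed library total, corrected by the TMM (trimmed mean of M-values) method. Estimated counts came to about 21757764 for low glucose against 19456553 for high glucose, so that 1 count was worth 0.0460 and 0.0514 CPM. With 1 library per concentration, no difference has a replicate check and no p-value is given. The 95% intervals (Wilson for a CPM, exact binomial for a log2 ratio) cover counting error only, since PCR reads without molecular identifiers are not independent molecules.

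The line was checked against marker genes. Of 7 enteroendocrine markers, 6 had a value, and their CPM added to 4270 in low glucose, against 4087 in high glucose. GCG, which encodes proglucagon, was the most abundant, at 1954 and 1808 CPM, and NEUROD1 had no value in the table. Intervals of the log2 ratio of high over low glucose lay below 0 for GCG, CHGA and CHGB. They lay above 0 for PCSK1 and SCGN and included 0 for SCG2. The 6 epithelial markers added to 498 and 563 CPM, led by KRT8, while EPCAM was at 3.37 and 3.50 CPM and CDH1, which encodes E-cadherin, at 0.0582 and 0.166 CPM, near the 0.138 and 0.154 CPM that a count of 0 allows in these libraries. VIL1, the actin-bundling protein villin, was at 11.7 CPM in low and 17.8 CPM in high glucose, a log2 ratio of 0.61 (0.37 to 0.85) and past 1.5-fold. Among 4 immune markers, PTPRC and CD3E had no value, and nearly all of the summed 455 and 426 CPM came from LYZ, the lysozyme gene, which intestinal Paneth cells also express. Endothelial markers added to 1.05 and 0.806 CPM, with VWF the higher of them in high glucose and PECAM1 in low glucose, and CDH5 had a count of 0 in high glucose. Smooth muscle markers added to 0.729 and 0.493 CPM, with MYH11 the most abundant and no value for ACTA2. Fibroblast markers added to 3.80 and 5.05 CPM, nearly all from COL1A2, with no value for DCN and PDGFRB. The part of these markers in the results was not tested. In bulk RNA, fewer cells of a type and less RNA per cell cannot be told apart.

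As background, growth factors and serum act on these genes through MAP kinases, which phosphorylate ternary complex factors bound with serum response factor at the CArG box. Hormones that raise cAMP act through protein kinase A and the factor CREB at the cAMP response element (CRE), and in L-cells cAMP is a second messenger of GLP-1 secretion. The messages are short-lived, in many cases through AU-rich elements in the 3′ untranslated region, so a brief stimulus gives a pulse of RNA that fades within hours.

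Promoter windows from RefSeq (GRCh38.p14), which run from 250 bases before to 50 bases after a start site, were at hand for 9 of the 10 genes, with 2 windows for NR4A1. Those of FOS, EGR1, DUSP1 and IER2 are shown because FOS and IER2 lay on opposite sides of the comparison of the libraries, EGR1 held the CArG boxes, and DUSP1 held the CRE. Each is 180 bases long, on the strand of the gene, and ends before the start of transcription. The FOS stretch is chr14:75278594-75278773 on the plus strand and stops 54 bases short of the RefSeq start, where the GENCODE gene begins. EGR1 is chr5:138465299-138465478 on the plus strand, DUSP1 is chr5:172771196-172771375 on the minus strand, and IER2 is chr19:13150231-13150410 on the plus strand. Capitals mark matches to the searched letters on either strand.
FOS: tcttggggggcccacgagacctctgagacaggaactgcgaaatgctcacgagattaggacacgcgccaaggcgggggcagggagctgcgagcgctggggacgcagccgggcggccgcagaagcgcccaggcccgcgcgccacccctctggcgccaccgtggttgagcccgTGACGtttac
EGR1: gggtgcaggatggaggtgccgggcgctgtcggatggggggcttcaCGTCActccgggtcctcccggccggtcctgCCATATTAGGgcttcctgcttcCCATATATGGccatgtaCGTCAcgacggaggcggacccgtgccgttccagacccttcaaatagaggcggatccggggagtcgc
DUSP1: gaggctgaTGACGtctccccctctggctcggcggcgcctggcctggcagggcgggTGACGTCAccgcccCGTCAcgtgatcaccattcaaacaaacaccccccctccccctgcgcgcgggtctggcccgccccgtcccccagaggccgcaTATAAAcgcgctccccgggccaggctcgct
IER2: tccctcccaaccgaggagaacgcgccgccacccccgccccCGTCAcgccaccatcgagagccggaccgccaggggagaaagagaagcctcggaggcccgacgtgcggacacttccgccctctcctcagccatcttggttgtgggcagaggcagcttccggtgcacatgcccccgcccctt

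In these lines, the capitals in FOS and IER2 are 1 CRE half-site each. EGR1 has 2 half-sites, which flank 2 CArG boxes, and in DUSP1 the capitals are a half-site, the full CRE, another half-site and a TATA box. A set of 6 motifs was searched on both strands, and the share of the 35116 windows of all genes that hold each is given beside it. The CRE, written TGACGTCA, was in the window of DUSP1, from -125 to -118 bases of the start site, and in 1.85% of all windows. Its half-site, TGACG, which the full CRE contains on each strand, was in the windows of 7 of the 9 genes, DUSP1, EGR1, FOS, FOSB, IER2, JUN and JUNB, and in 24.6% of all windows. EGR1 held CArG boxes from -105 to -96 and from -83 to -74, and 1.29% of all windows held 1 or more. TATA boxes, searched as TATAAA, lay at -33 to -28 in FOS, -30 to -25 in FOSB and DUSP1 and -31 to -26 in JUNB, so that 4 of the 9 genes had this match, against 11.5% of all windows. KLF6 had an EGR site, GCGGGGGCG, at -65 to -57, found in 5.07% of all windows. The AP-1 site, TGACTCA, was in 4.95% of all windows and in 0 of those of the 9 genes. A match describes the sequence and is not evidence of binding, and a window without a match lacks these letters and no more.

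**Figure D1:**
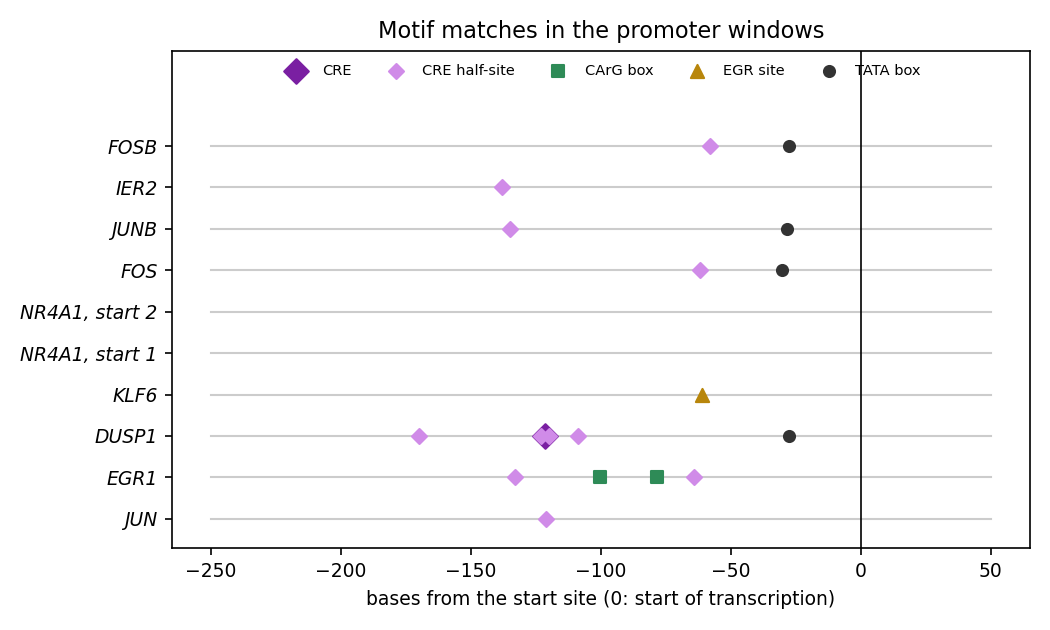
Positions of motif matches in the promoter windows, by distance in bases from the start site (x axis), with 1 line per window and a symbol per kind of motif. The TATA boxes of FOS, FOSB, DUSP1 and JUNB sit close to -30, and the 2 windows of NR4A1 hold no match.

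Across the 10 genes, log2 ratios of high over low glucose ran from -0.58 in FOS to 0.31 in IER3, with a median of -0.01, the same median as over the 13052 genes averaging 1 CPM or more. The ratio was above 0 in 5 genes and below 0 in 5, and 4 (EGR1, NR4A1, KLF6 and JUNB) lay within 0.10 of 0. None of the 10 was at least 1.5-fold higher in high glucose, as 1.13% of all genes were, and none was at least 1.5-fold lower, as 2.55% were. The counting interval lay above 0 for 2 genes (IER2 and IER3), as it did for 15.8% of all genes. It lay below 0 for 2 genes (FOS and JUN), as for 16.0% of all genes, and it included 0 for the other 6. Together the 10 genes added to 326 CPM in low glucose, against 339 in high glucose. The SD of the 10 ratios was 0.27, beside 0.31 over all genes. Both libraries thus held these messages at like summed levels. Intervals apart from 0, in 2 genes on each side, were about as common as over all genes.

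**Figure D2:**
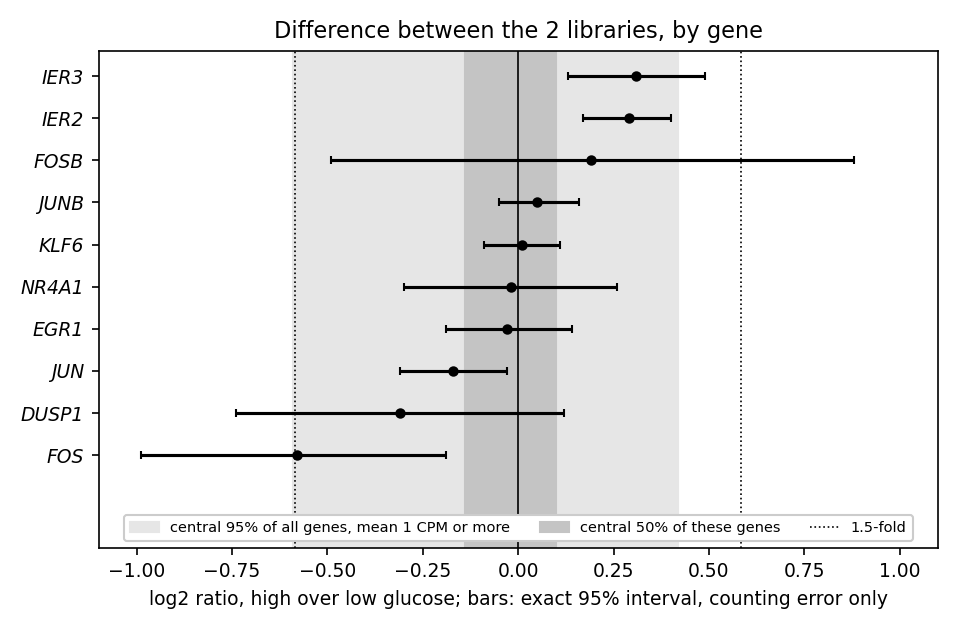
Log2 ratio of high over low glucose (x axis) for each of the 10 genes, with points for the 1 library per concentration and bars for the exact 95% interval from counts. Grey bands hold the central 95% (-0.59 to 0.42) and central 50% (-0.14 to 0.10) of all genes averaging 1 CPM or more, and all 10 points lie inside the wider band.

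FOS and FOSB encode leucine zipper proteins that must pair with a JUN protein to form the AP-1 factor. FOS (ENSG00000170345.9, GRCh38 chr14:75278774-75282230, plus strand, 4 exons) was at 6.55 CPM in low glucose (interval 5.55 to 7.70, from 142 estimated counts), against 4.37 in high glucose (3.53 to 5.39, from 85). It was the lowest of the 10 ratios, at -0.58 (-0.99 to -0.19). To 4 decimals the ratio was -0.5822, short of the 0.5850 in size that marks 1.5-fold. Of all genes, 96.3% differed by less, but FOS is a gene of few counts, and among the 3707 genes with a mean of 1 to 10 CPM that share was 88.0%. In that range, 8.23% of genes were at least 1.5-fold lower in high glucose. The higher level of FOS in low glucose was larger than counting error. In the range of 1 to 10 CPM, where the mean of FOS was 5.46, 8.31% of genes had a lower ratio. Intervals lay below 0 for 10.9% of the genes of that range.

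FOSB (ENSG00000125740.13, GRCh38 chr19:45467995-45475179, plus strand, 4 exons) was at 1.76 CPM in low glucose (1.27 to 2.40, from 38 counts), against 2.01 in high glucose (1.46 to 2.74, from 39). The ratio of 0.19 had an interval from -0.49 to 0.88, and a difference could not be seen from so few counts. Its point lay on the side opposite to FOS, and it was the lowest of the 10 genes on every scale used.

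JUN and JUNB encode the partners of the FOS proteins, which can also pair with each other, and JUNB is the weaker activator on many AP-1 sites. JUN (ENSG00000177606.6, GRCh38 chr1:58780788-58784327, minus strand, a gene of 1 exon) was at 43.1 CPM in low glucose (40.5 to 46.0), against 38.4 in high glucose (35.7 to 41.2). Its ratio of -0.17 (-0.31 to -0.03) had the sign of FOS at a much smaller size, and 65.1% of all genes differed by less. JUNB (ENSG00000171223.5, GRCh38 chr19:12791496-12793315, plus strand, 1 exon) was at 71.8 CPM in low glucose (68.3 to 75.5), against 74.5 in high glucose (70.8 to 78.4). Its ratio of 0.05 had an interval from -0.05 to 0.16, which includes 0. The lower bound of that interval was far above the ratio of FOS. JUNB shares 259 exon bases with HOOK2, on the opposite strand, at 4.80 and 5.25 CPM. The library kit was TruSeq RNA v2 with polyA selection, and the strand setting of the counting is not given in the sources used here, so reads of the shared bases cannot be told apart.

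Levels of different genes are compared per kb of transcript (CPM over the median length of the gene's coding transcripts). On this scale the JUN family (JUN, JUNB and JUND) added to 72.4 CPM per kb in low glucose, against 69.5 in high glucose. The FOS family (FOS, FOSB, FOSL1 and FOSL2) added to 13.8 and 12.2 CPM per kb. The JUN family was thus 5.25 times the FOS family in low glucose and 5.71 times in high glucose, or 7.60 and 7.95 times with the length of all exons joined. JUNB made up 54.5% of the JUN family in low glucose and 58.9% with high glucose. Within the FOS family, FOS held 35.4% in low glucose, FOSL2 34.1% and FOSL1 26.7%. In high glucose FOSL2 held 37.5%, FOSL1 30.9% and FOS 26.8%. With exons joined, FOSL2 led in both libraries (45.6% and 48.1%), followed by FOSL1 (27.6% and 30.7%) and FOS (23.4% and 17.0%), so the place of FOS in low glucose depends on the length used. The AP-1 messages of both libraries were mostly of JUN type.

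EGR1, NR4A1 and KLF6 are also transcription factors. EGR1, a zinc finger factor that binds GC-rich sites (ENSG00000120738.7, GRCh38 chr5:138465490-138469315, plus strand, 2 exons), was at 28.7 CPM in low glucose (26.5 to 31.0), against 28.2 in high glucose (25.9 to 30.6). The ratio of -0.03 had an interval from -0.19 to 0.14. EGR1, whose window carries the CArG boxes, was near 0, and it made up 89.0% of the EGR family per kb in low glucose and 83.3% in high glucose.

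NR4A1 encodes the orphan nuclear receptor Nur77, a cAMP-responsive gene in endocrine cells (ENSG00000123358.19, GRCh38 chr12:52022832-52059507, plus strand, 8 exons). It was at 10.6 CPM in low glucose (9.26 to 12.0), against 10.4 in high glucose (9.08 to 12.0), with a ratio of -0.02 (-0.30 to 0.26). Within the NR4A family it held 76.5% of the CPM per kb in low glucose and 76.3% with high glucose. Of its exon bases, 754 are shared with the opposite-strand gene AC025259.3, which had no value in the table, so NR4A1 reads from these bases are uncertain.

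KLF6, a Krüppel-like factor with roles in growth arrest (ENSG00000067082.14, GRCh38 chr10:3775996-3785281, minus strand, 4 exons), had the highest CPM of the 10, at 80.4 in low glucose (76.7 to 84.2) and 80.9 in high glucose (77.0 to 85.0). Its ratio of 0.01 (-0.09 to 0.11) was the smallest in size of the 10. The 3 genes closest to KLF6 by distance of log2 CPM over the 2 libraries were NME1-NME2 (80.1 and 80.7 CPM), DYNC1LI2 (79.9 and 81.2 CPM) and RBM10 (80.7 and 81.8 CPM). In all, 172 genes lay within 0.1 of it, so this likeness is common at its level, and NME1-NME2, a read-through of neighbouring genes, is itself uncertain.

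IER2 and IER3 were the genes whose intervals lay above 0. IER2 encodes a small nuclear protein that acts in transcription (ENSG00000160888.6, GRCh38 chr19:13150415-13154908, plus strand, 1 exon in its longest coding transcript). It was at 55.6 CPM in low glucose (52.6 to 58.8, from 1208 counts), against 67.9 in high glucose (64.3 to 71.6, from 1322), a ratio of 0.29 (0.17 to 0.40) or 1.22-fold. The CPM intervals of the libraries did not overlap. Of the 7106 genes with a mean of 10 to 100 CPM, 2.83% had a higher ratio.

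IER3 encodes a regulator of apoptosis and of ERK signalling (ENSG00000137331.11, GRCh38 chr6:30743199-30744554, minus strand, 1 exon in its longest coding transcript). It was at 22.6 CPM in low glucose (20.7 to 24.7, from 492 counts), against 28.1 in high glucose (25.8 to 30.5, from 547), a ratio of 0.31 (0.13 to 0.49) or 1.24-fold. Of the genes with a mean of 10 to 100 CPM, 2.15% had a higher ratio, and the 97.5th percentile of that range was 0.30, so IER3 lay just past it and IER2 just within. Both were placed high among genes of like level and below 1.5-fold. IER2 shares 946 exon bases with AC011446.2 and IER3 shares 359 with IER3-AS1, both on the opposite strand and with no value in the table, so both genes' counts are uncertain to that extent.

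DUSP1 encodes a phosphatase that inactivates MAP kinases and so closes the loop that switches these genes on (ENSG00000120129.5, GRCh38 chr5:172768090-172771195, minus strand, 4 exons). It was at 5.03 CPM in low glucose (4.16 to 6.05, from 109 counts), against 4.07 in high glucose (3.25 to 5.05, from 79). The ratio of -0.31 had an interval from -0.74 to 0.12. Its point was on the side of FOS, yet a difference was not detectable at this depth, and 63.8% of genes with a mean of 1 to 10 CPM differed by less. DUSP1 and FOS, the genes with the lowest ratios, were both among the 3 with a mean under 10 CPM.

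**Figure D3:**
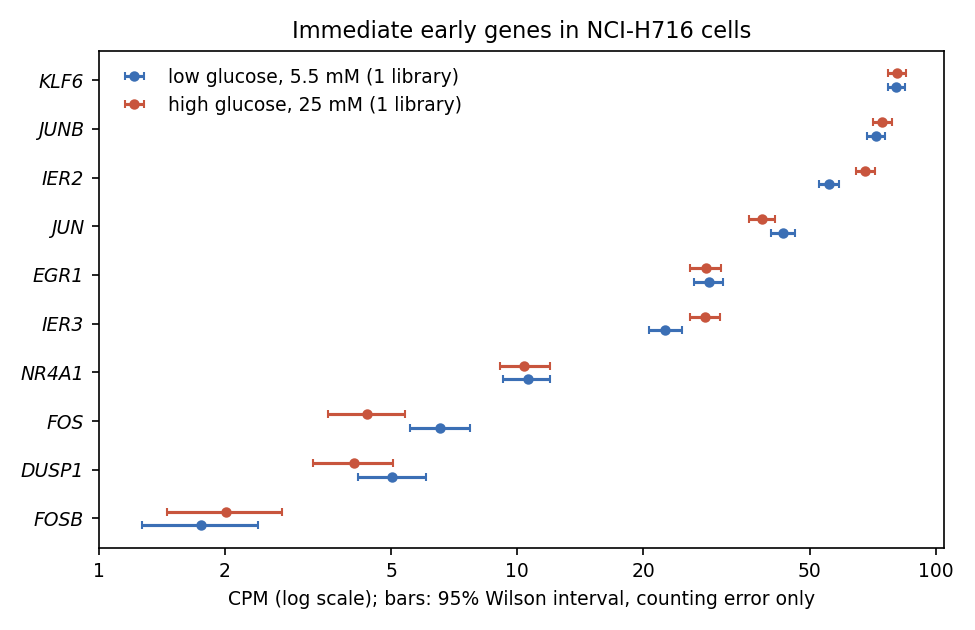
CPM of the 10 genes (x axis, log scale) in the low glucose library and the high glucose library, with bars for the 95% Wilson interval from counts. The libraries' intervals are apart for IER2 and IER3 and also for FOS (5.55 to 7.70 against 3.53 to 5.39), and overlap for the other 7.

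The spread of ratios narrows with level. Its SD was 0.51 over the genes with a mean of 1 to 10 CPM, 0.17 from 10 to 100 CPM and 0.13 above that. FOS, DUSP1 and FOSB fell in the lowest range, where 11.8% of genes differed by at least 1.5-fold. The other 7 fell in the middle range, where 0.535% did, and none was at 100 CPM or more. JUN, at -0.17, had a lower ratio than all but 14.5% of genes of the middle range.

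**Figure D4:**
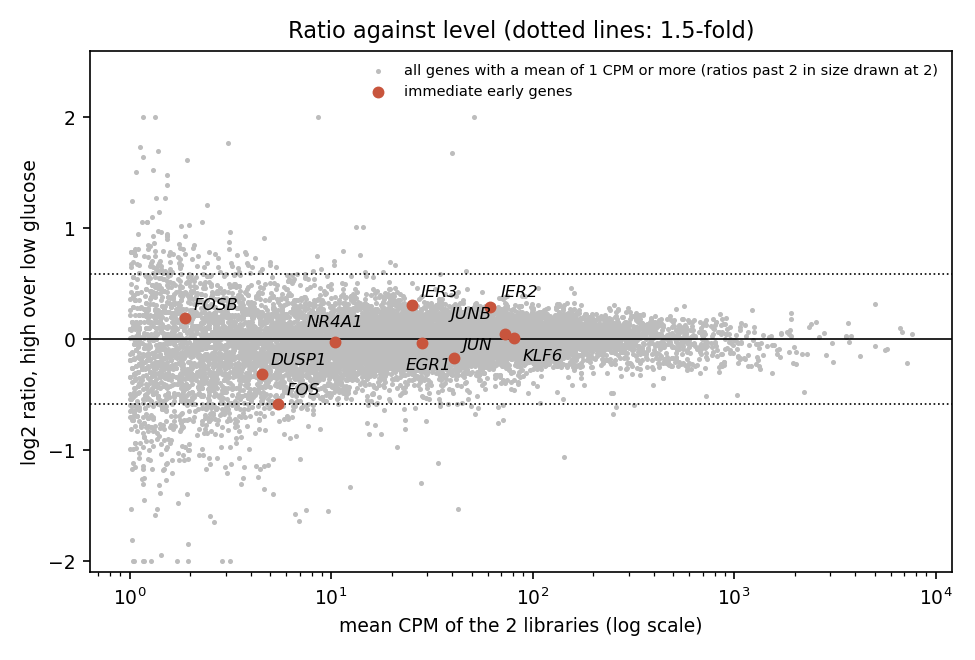
Log2 ratio of high over low glucose (y axis) against the mean CPM of both libraries (x axis, log scale) for all genes averaging 1 CPM or more (grey) and the 10 immediate early genes (red), with dotted lines at 1.5-fold. FOS sits at the lower dotted line where grey points spread widely, while IER2 and IER3 sit at the upper edge of a narrower cloud.

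Per kb of transcript, mean levels ran in the order JUNB (40.2 CPM per kb), IER2 (29.6), IER3 (19.5), KLF6 (17.8), JUN (11.5), EGR1 (9.06), FOS (4.07), NR4A1 (4.05), DUSP1 (2.25) and FOSB (0.547). IER3 and KLF6 did not differ beyond counting error in low glucose, at 17.5 (16.0 to 19.1) and 17.7 (16.9 to 18.6) CPM per kb. In high glucose IER3 was above KLF6, at 21.6 (19.9 to 23.5) against 17.8 (17.0 to 18.7). FOS and NR4A1 overlapped in both libraries and changed places, with FOS at 4.88 and then 3.26 CPM per kb and NR4A1 at 4.08 and then 4.02. With the length of all exons joined, NR4A1, DUSP1 and FOS came in that order, at means of 2.59, 2.25 and 1.86 CPM per kb, so the places of these 3 depend on the length used. In low glucose IER3 was then above KLF6, at 16.7 (15.3 to 18.2) against 13.5 (12.8 to 14.1), so their tie there also depends on the length. By the mean of both libraries, the first 6 places and the last were the same under both lengths. The message of the highest gene, JUNB, was thus far more abundant than that of FOS or FOSB in either library.

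The 10 genes share features that the choice of members did not use. Their median span in the genome was 3683 bases, beside 33802 over the 11285 coding genes averaging 1 CPM or more that the annotation holds, and 9 of 10 spanned less than 10 kb, as 18.2% of those genes did. NR4A1, at 36676 bases, was the exception. The longest coding transcript had a median of 3 exons, beside 9 over all, while transcript length was close to that of all genes (2337 and 2600 bases). These are small genes with few introns and messages of usual length. JUNB and IER2 lie 357 kb apart on chromosome 19, and their ratios were 0.05 and 0.29.

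The letters ATTTA, the core of AU-rich elements, were counted in the 3′ untranslated region on the RNA strand. The median of the 10 genes was 3.17 per kb, beside 1.77 over 11126 genes, with 6 of the 10 above that value and 4 below it. Above it were IER3 (6.64 per kb), FOS (6.20), DUSP1 (5.95), NR4A1 (5.39), JUN (2.33) and, between these last values, JUNB. Below it were KLF6 (1.69 per kb, from 6 matches in a long region), FOSB (1.39), EGR1 (0.810) and IER2, which had 0. In all, 8 of the 10 genes had 2 or more matches, against 58.8% of all genes. IER2 and IER3, which had like ratios, stood at the 2 ends of this order. A link between these matches and the ratios was not tested.

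Genes of the same families were described from lists. Of 8 AP-1 relatives, 5 averaged 1 CPM or more, with a median ratio of -0.05 (all genes -0.01), 2 higher and 3 lower in high glucose. None of the 5 was past 1.5-fold, as 1.13% of all genes were upward and 2.55% downward. The most abundant was JUND, a JUN protein made at steady levels in many cells, at 38.6 CPM in low and 33.0 CPM in high glucose, a ratio of -0.23 (-0.38 to -0.08). ATF3, a stress-induced factor that pairs with JUN, was at 5.44 and 3.66 CPM, a ratio of -0.57 (-1.02 to -0.14). The intervals of these 2 of the 5 genes lay below 0, as did those of JUN and FOS, where 16.0% of all genes had this. Those of 0 of the 5 lay above 0, where 15.8% of all genes had this. FOSL2 (29.5 and 28.5 CPM, ratio -0.05) did not differ beyond counting error.

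Among 13 relatives of EGR1, NR4A1, KLF6 and the IER genes, 9 averaged 1 CPM or more, with a median ratio of 0.03, 5 higher and 4 lower. Intervals lay above 0 for 3 and below 0 for 0 of the 9, where 15.8% and 16.0% of all genes had this. KLF10, a Krüppel-like factor induced by TGF-beta and by glucose in other tissues, was at 27.7 CPM in low glucose, against 41.6 in high glucose. Its ratio of 0.59 (0.44 to 0.74) put it past 1.5-fold, as the only one of the 9, where 1.13% of all genes were past it upward, whereas KLF6 was at 0.01. KLF5, the most abundant, was at 222 and 237 CPM. Of the relatives averaging under 1 CPM, EGR2 had a ratio of 1.62 (0.25 to 3.29), from 6 and 17 counts. The intervals of EGR3, NR4A3 and KLF2, also under 1 CPM, included 0. IER5, at 29.5 and 33.3 CPM, had a ratio of 0.17 (0.01 to 0.33), on the side of IER2 and IER3. The point of IER5L was on the other side, at -0.23 (-0.73 to 0.27), the lowest ratio of the 9.

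Of 37 other immediate early genes, 33 had a value and 28 averaged 1 CPM or more, with a median ratio of -0.04, 12 higher and 16 lower. Intervals lay above 0 for 5 and below 0 for 8 of the 28, where 15.8% and 16.0% of all genes had this. Of the 8, 3 came from the 5 genes at a mean of 100 CPM or more, a level at which 25.9% of all genes lay below 0. Another 4 came from the 10 genes at 10 to 100 CPM, where 15.5% of all genes did. CSRNP1, a nuclear protein induced by growth signals, was past 1.5-fold upward, at 4.15 and 6.53 CPM (ratio 0.65, 0.25 to 1.06). NFKBIZ, a nuclear IκB protein, was past it downward, at 3.69 and 1.76 CPM (ratio -1.07, -1.70 to -0.48). These were 1 of 28 genes in each direction, beside 1.13% higher and 2.55% lower over all genes, and both were under 10 CPM, where 11.8% of genes with a mean of 1 CPM or more differed by at least 1.5-fold. ID3, the most abundant, was at 450 and 429 CPM. As in the 10 genes, the median was near 0.

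Genes around the MAP kinase loop in which DUSP1 acts lay on both sides of 0. Of 15 MAP kinase phosphatases and feedback inhibitors, 14 averaged 1 CPM or more, with a median ratio of -0.04, 6 higher and 8 lower. None of the 14 was past 1.5-fold, as 1.13% of all genes were upward and 2.55% downward. Intervals lay above 0 for 5 of the 14 and below 0 for 2, where 15.8% and 16.0% of all genes had this. Counting intervals are narrower for abundant genes, and 3 of the 5 came from the 4 genes with a mean of 100 CPM or more, a level at which 36.4% of all genes lay above 0. DUSP6, the ERK-specific phosphatase, was the highest, at 131 CPM in low and 180 CPM in high glucose, a ratio of 0.46 (0.39 to 0.53), on the other side of 0 from the point of DUSP1. SPRY4, the most abundant, was at 212 and 239 CPM. Of 25 upstream factors and kinases, 24 were tested in this way, with a median of 0.03, 14 higher and 10 lower. None of the 24 was past 1.5-fold, beside the same 1.13% and 2.55% of all genes. Intervals lay above 0 for 5 and below 0 for 4, beside 15.8% and 16.0% of all genes. Of these, 2 and 1 came from the 4 genes at a mean of 100 CPM or more, where 36.4% and 25.9% of all genes had this. SRF, which binds the CArG box, was at 57.1 and 58.5 CPM, CREB1 at 46.0 and 48.0 CPM, and RPS6KA3, the most abundant, at 267 and 283 CPM.

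Of 7 genes listed for their response to cAMP, 6 averaged 1 CPM or more, with a median ratio of -0.37, beside -0.01 over all genes, 1 higher and 5 lower. Intervals lay below 0 for 4 of the 6, where 16.0% of all genes had this, and PER1 was among the 4 with an upper bound that rounds to 0.00. The interval of PDE4B included 0, and PDE4D was at 0.02. The 1 gene past 1.5-fold downward, as 2.55% of all genes were and 8.23% of those with a mean of 1 to 10 CPM, was NFIL3, a leucine zipper repressor that also acts in the clock, at 9.77 CPM in low glucose, against 6.48 in high glucose (ratio -0.59, -0.92 to -0.27). PPARGC1A, a coactivator of mitochondrial and gluconeogenic genes, was at 26.3 and 18.8 CPM (-0.48, -0.68 to -0.29). RGS2, a G protein regulator and the most abundant, was at 77.0 and 61.5 CPM (-0.32, -0.43 to -0.22). SIK1, which has a near-identical copy, was under 1 CPM in both libraries and is uncertain. FOS was also lower in high glucose, and DUSP1, whose window holds the CRE, was at -0.31 (-0.74 to 0.12). NR4A1, JUNB and EGR1, which are cAMP-responsive too, were near 0. NR4A2 was at 0.03, with a wide interval (-0.52 to 0.58), and CREM was at 0.13 (-0.07 to 0.32). A difference in cAMP signalling between the libraries was not tested.

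Heat shock genes, which respond to stress of handling, all averaged 1 CPM or more. Of 13, 10 were higher and 3 lower in high glucose, with a median of 0.10, beside -0.01 over all genes, of which 48.6% were higher. None of the 13 was past 1.5-fold, beside 1.13% of all genes upward and 2.55% downward. At a mean of 100 CPM or more, 0.179% of genes were past it in either direction. Intervals lay above 0 for 8 and below 0 for 2, where 15.8% and 16.0% of all genes had this. Of the 13, 10 were at a mean of 100 CPM or more, with 6 above 0 and 2 below. Of all genes at that level, 36.4% lay above 0 and 25.9% below. Ratios ran from -0.12 in HSPB1 to 0.23 in BAG3, and the most abundant, HSP90AA1, was at 2281 and 2517 CPM. HSPA1A (159 and 161 CPM) and HSPA1B (259 and 247 CPM) are near-identical copies that share reads, so their split is uncertain. The ratios of IER2 and IER3 were above the highest of this list and those of FOS, DUSP1 and JUN were below its lowest. However, the intervals of IER2 and IER3 included the ratio of BAG3, and those of DUSP1 and JUN the ratio of HSPB1. FOS and DUSP1 were also at 1 to 10 CPM, where the SD of ratios was 0.51, beside 0.13 at 100 CPM or more.

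**Figure D5:**
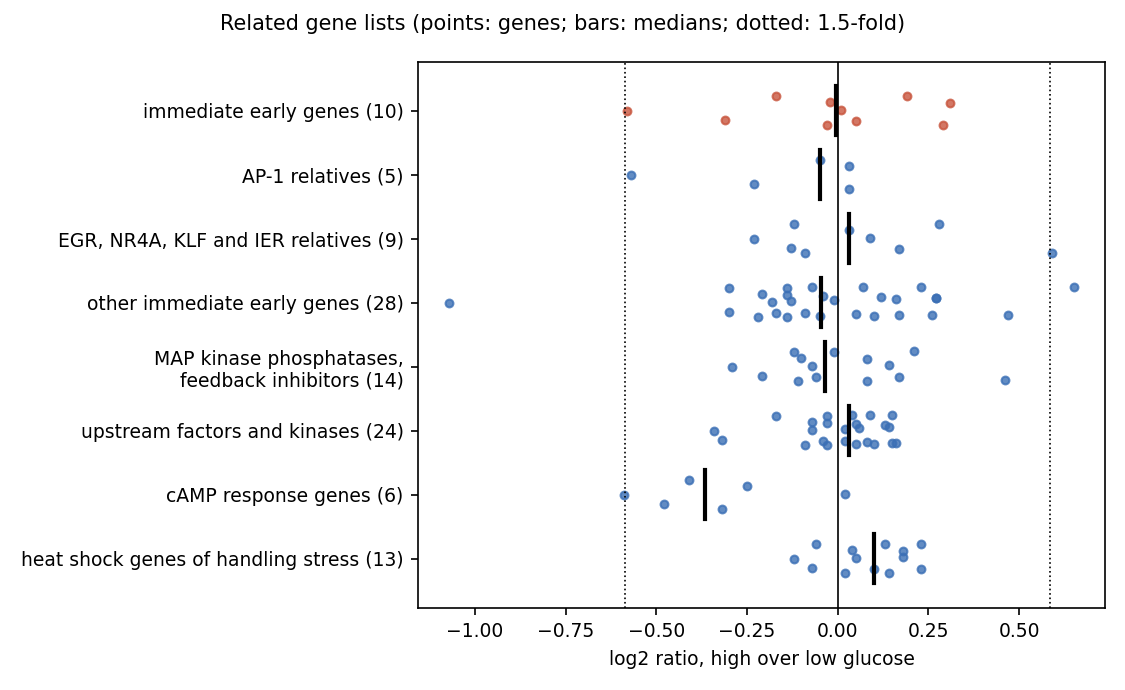
Log2 ratio of high over low glucose (x axis) for the 10 immediate early genes (red) and 7 related lists (blue, genes averaging 1 CPM or more, their number in brackets), with black bars at medians and dotted lines at 1.5-fold. Medians lie between -0.05 and 0.10 except for the cAMP response genes, at -0.37.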

How the data were processed

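Per the study's methods, reads of polyA-selected TruSeq libraries were aligned to GRCh38 with GENCODE 28 and genes of very low count were removed. The submitters' processing notes name Trim Galore 0.5.0, STAR 2.6.0 and RSEM 1.3.1. The authors normalized with edgeR and deposited CPM per library for 19989 genes, with their log2, mean and fold, and none of these latter columns was used. Estimated counts were recovered from the steps between low CPM (72.6% and 74.0% of values under 10 CPM were whole to within 0.02) and rounded for intervals. The methods name TMM, but once a prior of 0.0121 CPM is taken off, the deposited CPM sum to 1000000 in each library and show no such factor. They were therefore divided by TMM factors computed from these counts, 0.998 in low and 1.002 in high glucose, with scipy 1.17.1, numpy 2.4.6 and pandas 2.3.3 under Python 3.11.15. Calculations were tested on simulated data. A ratio is called past 1.5-fold among genes averaging 1 CPM or more. Coordinates and lengths are from GENCODE 29 on GRCh38. Besides the 10 members, the genes named were markers, the most abundant gene of each list, list genes past 1.5-fold averaging 10 CPM or more, and the 3 nearest to KLF6. Other genes were named after their values were seen, and the level ranges, gene features and exon-joined lengths were added then. The members and lists were chosen with earlier results of these data known.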

Additional observations from a re-analysis of the deposited data

How the results depend on the processing

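Each member's ratio was recomputed with library totals, median-of-ratios factors, a pseudocount of 1 CPM and the prior in the deposited CPM removed. All 40 values lay within the main counting interval, and 0 changed sign at 2 decimals. The count of members past the fold was 0 under these settings, without a filter, at a mean of 10 CPM or more and at a fold of 2, and it was 1 (FOS) at a lower threshold, a log2 ratio of 0.32. Over all genes, 480 passed 1.5-fold (147 higher, 333 lower in high glucose). With a pseudocount of 1 CPM this was 168 (40 higher, 128 lower), without a filter 4694 (2010 higher, 2684 lower) and at a mean of 10 CPM or more 42 (14 higher, 28 lower). That lower threshold gave 1644 (576 higher, 1068 lower) and a fold of 2 gave 109 (28 higher, 81 lower). Intervals excluded 0 for 4 members, and for 3 at a mean of 10 CPM or more, where FOS drops out. No paired analysis was possible because low and high glucose each have a single library. Depth limits FOSB, DUSP1 and FOS most, with under 150 counts per library.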
